A study of Mus musculus with 8 samples.

Results

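Transcripts of ephrins, Slits, netrins and their receptors were measured in mouse lower first molars at embryonic stage E18.5. The genes were chosen by symbol, as the protein-coding Efna, Efnb, Epha, Ephb, Slit, Robo, Ntn and Unc5 genes together with Dcc and Neo1, which gave 38 of the 43629 Ensembl genes counted. They comprise 5 ephrin-A, 3 ephrin-B, 9 EphA, 5 EphB, 3 Slit, 4 Robo and 3 netrin genes, and 6 netrin receptor genes. RNA-seq was performed on 4 K14:cre; Jagged1 fl/fl embryos, called mutant here, and on 4 littermates with the genotype Jagged1 fl/fl, called control. Both groups carry Jagged1 alleles flanked by loxP sites, and only the mutant carries Cre, under the keratin 14 promoter, which is active in epithelium, so that Jagged1 was not targeted in the dental mesenchyme, vessels or nerves. Each library is 1 embryo and pools its molars of both sides. The comparison asks which transcripts differ in the whole tooth germ when the Notch ligand Jagged1 is deleted from its epithelium. Control libraries held 17327224 to 28613574 counts and mutant libraries 24692128 to 29792467, and 3 counts corresponded to between 0.0998 and 0.166 CPM, the unit used here for counts normalised to library size.

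Ephrins are membrane-bound ligands: the ephrin-A proteins are held by a lipid anchor and mainly bind EphA receptors, whereas the ephrin-B proteins cross the membrane and mainly bind EphB receptors, so that both ligand and receptor can signal where cells touch. Slits are secreted proteins that repel growing axons and migrating cells through Robo receptors, and netrins are laminin-related secreted proteins that attract through Dcc and Neo1 or repel through the Unc5 receptors. All of these are best known from axon guidance and also act in epithelial boundaries and blood vessels, and a tooth germ at this stage holds an epithelium, a mesenchymal papilla, and ingrowing vessels and nerve fibres.

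The targeted gene was examined first. Jag1 was at 95.2, 103, 104 and 99.9 CPM in controls J3, J5, J6 and J7, and at 34.0, 39.0, 46.0 and 57.1 CPM in mutants K14J26, K14J28, K14J29 and K14J30. Every mutant lay below every control, and the log2 fold change was -1.19 (SE 0.14, edgeR quasi-likelihood test, adjusted p = 0.00517). Without controls J6 and J7, which are described below, it was -1.18 with an adjusted p of 0.114. These are counts over the whole gene in mixed tissue, and cells in which K14 is not active keep their Jag1. Several libraries stood apart. The enamel genes Amelx, Ambn and Enam took 9.57% of all counts in mutant K14J26 and 2.47% in K14J29, against 0.0559% to 0.965% in the other embryos. Controls J6 and J7 held skeletal muscle transcripts, with summed levels of 399.9 and 199 CPM over 8 marker genes against 5.05 to 18.9 CPM elsewhere. Xist was at 1929.7 and 1468 CPM in mutants K14J28 and K14J29 and at most at 1.09 CPM in the other 6 embryos. In these bulk samples, fewer cells of a type and less RNA per cell cannot be told apart.

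Of the 38 genes, 34 reached 10 counts in 2 or more embryos of a group and were tested. In the mutant 8 of them fell at an adjusted p under 0.05, and 0 rose. Lower were the ephrins Efna2, Efna5 and Efnb3, the Eph receptors Epha2 and Ephb4, the Robo genes Robo1 and Robo4, and the netrin receptor Unc5c. Their log2 fold changes lay between -0.31 and -0.51. These 8 are 23.5% of the tested members, where 6.61% of all 17129 genes tested were called lower and 9.52% higher. At an unadjusted p of at most 0.05, edgeR gave 15 members lower and 1 higher, beside 15.7% and 19.1% of all genes. DESeq2 called 11 lower and 1 higher after adjustment, and 1718 lower and 2244 higher among all 17129 genes. The one higher gene in both was Efnb2. By the criteria of the study (unadjusted p of at most 0.05 and a fold change of at least 0.5, read here as the size of the log2 fold change, a scale that its methods do not state) 2 members were lower, Ephb2 and Unc5c, and 0 were higher, against 5.85% and 8.33% of all genes. All 4 mutant values lay below all 4 control values in 9 members (26.5%), against 11.6% of all genes, and above them in 1 member, against 12.6%. The median log2 fold change of the tested members was -0.26, with 26 negative and 8 positive, beside a median of 0.01 over all genes. Among all genes called, 41.0% were lower with TMM scaling, 51.5% with upper-quartile scaling and 55.4% on library size alone. The counts of members called lower under these scalings were 8, 9 and 8, beside 6.61%, 8.45% and 6.19% of all genes.

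**Figure D1:**
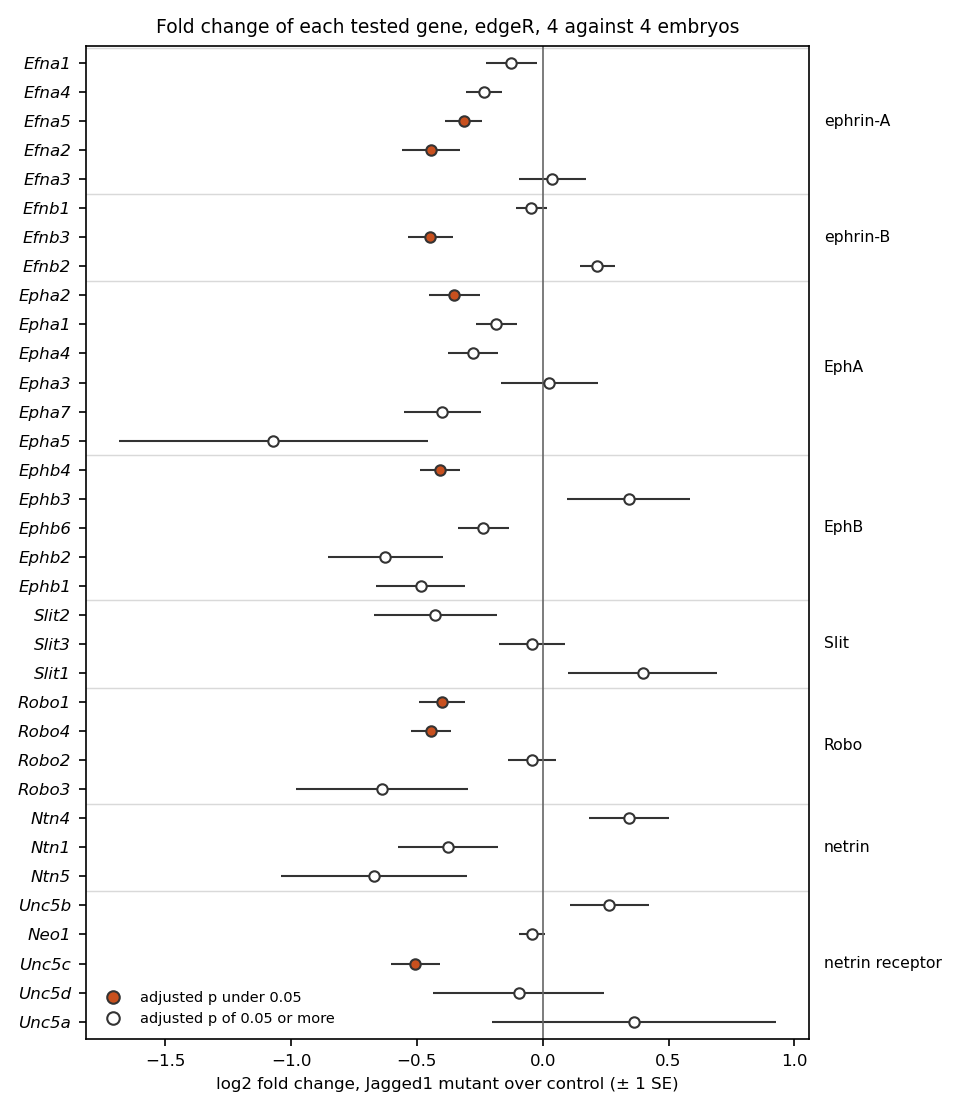
Log2 fold change (mutant over control, x axis, with bars of 1 SE from edgeR) of the 34 genes tested, by family on the y axis, with filled points for an adjusted p under 0.05. The 8 filled points all lie left of 0, and Efnb2 is the positive estimate with the smallest error.

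The calls were spread over ligands and receptors. In 14 ligand genes 3 were lower, with a median log2 fold change of -0.18, and in 20 tested receptor genes 5 were lower, with a median of -0.31. By family, calls were made in 2 of 5 ephrin-A genes, 1 of 3 ephrin-B genes, 1 of 6 EphA genes, 1 of 5 EphB genes, 2 of 4 Robo genes and 1 of 5 netrin receptor genes. In 3 Slit genes and 3 netrin genes edgeR made 0 calls, also at an unadjusted p of at most 0.05. DESeq2 made 0 after adjustment, and at that unadjusted threshold it gave Ntn4 as higher. The estimates for Efna3 and Epha3, 0.04 and 0.03, were negative with upper-quartile scaling (-0.00466 and -0.01) and on library size (-0.06 and -0.07), and no other member changed sign with the scaling.

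The sequences just before the start of 5 members are shown as examples. They can be compared for the core of the motif bound by RBPJ, the DNA-binding partner of Notch. The 5 were picked by name: edgeR called Ephb4 and Robo4 lower, and did not call Efnb2, Epha4 or Efnb1. Epha4 and Efnb1 hold the core, and the 5 do not stand for the members as a whole. The sequences are from RefSeq on GRCm38.p6, on the strand of the gene, and end before its annotated start. The RefSeq start of Robo4 lies downstream of the start in GENCODE, so its 175 bases end before the GENCODE start, and the other 4 have 250 bases that end just before the RefSeq start. Capitals mark TGGGAA, the core, which was searched on both strands. Ephb4 lies at chr5:137349859-137350108 (plus strand), Efnb2 at chr8:8661243-8661492 (minus strand), Robo4 at chr9:37401722-37401896 (plus strand), Epha4 at chr1:77515089-77515338 (minus strand) and Efnb1 at chrX:99135811-99136060 (plus strand).
Ephb4: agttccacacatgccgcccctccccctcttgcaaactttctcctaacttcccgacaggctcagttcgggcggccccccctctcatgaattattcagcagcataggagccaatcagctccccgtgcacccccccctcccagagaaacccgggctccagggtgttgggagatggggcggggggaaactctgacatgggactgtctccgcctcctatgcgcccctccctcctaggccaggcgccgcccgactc
Efnb2: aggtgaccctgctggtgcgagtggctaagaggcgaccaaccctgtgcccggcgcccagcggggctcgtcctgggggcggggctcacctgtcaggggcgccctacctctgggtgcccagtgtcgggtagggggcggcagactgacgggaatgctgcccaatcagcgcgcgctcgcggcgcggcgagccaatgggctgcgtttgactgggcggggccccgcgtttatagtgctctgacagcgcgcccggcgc
Robo4: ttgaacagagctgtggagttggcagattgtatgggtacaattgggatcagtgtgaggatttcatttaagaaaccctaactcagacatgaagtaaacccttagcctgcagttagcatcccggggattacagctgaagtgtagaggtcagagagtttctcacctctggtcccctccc
Epha4: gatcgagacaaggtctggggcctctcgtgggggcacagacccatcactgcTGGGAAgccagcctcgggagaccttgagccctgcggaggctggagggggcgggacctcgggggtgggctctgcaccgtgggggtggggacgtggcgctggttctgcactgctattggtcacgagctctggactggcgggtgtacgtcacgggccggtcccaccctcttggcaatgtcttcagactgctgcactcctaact
Efnb1: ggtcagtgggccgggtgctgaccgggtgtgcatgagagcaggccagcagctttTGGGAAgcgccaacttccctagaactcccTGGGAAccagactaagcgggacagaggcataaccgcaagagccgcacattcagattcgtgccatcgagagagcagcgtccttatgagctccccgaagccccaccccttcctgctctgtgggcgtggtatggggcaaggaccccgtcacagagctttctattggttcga
Promoters of 300 bases, from 250 before to 50 after the start, were found for 33 of the 38 genes, 38 promoters in all. TGGGAA was in 9 of these 38 promoters (23.7%), which belong to 8 genes, and in 25.6% of the 32851 promoters in the table. Of the 8 genes called lower, 7 had a promoter, and 0 of these held the 6 letters. The copies shown are at position -200 in Epha4 and at -197 and -168 in Efnb1, counted from the first base of the core to the start. The promoters of the members had 2 to 56 CpG dinucleotides, with a median of 21.5. Their share of G and C was 45.0% to 84.3%, with a median of 64.85%. As examples, the promoter of Robo4 had 2 CpG and 50.3% G and C, and that of Efna5 had 38 and 73.3%. A match of these letters is a description of the sequence, and binding was not measured.

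Levels were compared between genes as CPM per kilobase of annotated exons. Over the 8 embryos, Unc5b (56.5) and Neo1 (44.9) had the highest level of the 38 genes, followed by Efna1 (33.1), Efnb1 (24.5), Ephb4 (21.6), Efna4 (16.5), Epha2 (16.1), Efna5 (15.7) and Robo1 (15.2). In the other families the highest were Slit2 at 7.004 and Ntn4 at 6.73. The genes highest in each of the 8 families were the same when the longest transcript was taken as length, but the levels of some were not. Robo1 was then at 33.1 per kilobase, next after Efna1, and Slit2 at 17.9, whereas Unc5b, Neo1 and Efna1 remained the highest 3. Dcc, the receptor by which netrins attract axons, had 2 to 13 counts in a library, and Epha6, Epha8 and Epha10 had at most 5. These 4 genes did not reach the count minimum and were not tested in the main fit. With no filter on low counts edgeR called none of them. Epha6 then had an unadjusted p of 0.0202 and an adjusted p of 0.122. Robo3, Epha5, Unc5a and Ntn5 were tested, but at 0.0279 to 0.284 CPM per kilobase. The netrin receptors counted in these molars were therefore mostly Neo1, Unc5b and Unc5c, and Dcc was near the limit of counting.

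**Figure D2:**
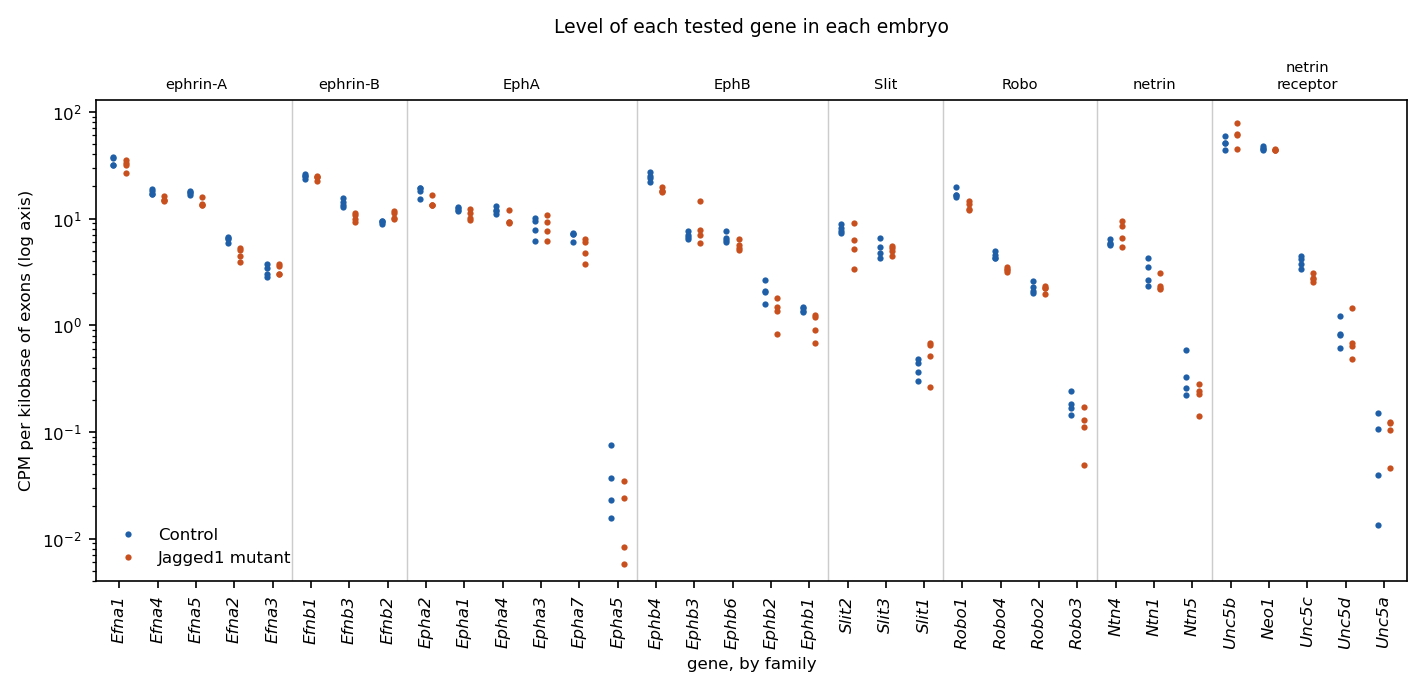
Level of the 34 genes tested in each embryo, as CPM per kilobase of annotated exons on a log axis, with 4 control points and 4 mutant points per gene, by family. Unc5b and Neo1 are at the top and Epha5 and Unc5a at the bottom.

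Among the ligands of the Eph receptors, Efna1, a ligand of Epha2 in epithelia, had the highest level per kilobase of exons. In CPM it was at 58.4, 67.2, 69.4 and 57.8 CPM in controls J3, J5, J6 and J7 and at 64.4, 48.6, 61.2 and 57.6 CPM in mutants K14J26, K14J28, K14J29 and K14J30. The groups overlapped, and the log2 fold change was -0.13 (SE 0.10, adjusted p = 0.403 by edgeR). Efna5, a ligand known from the mapping of retinal axons, was at 69.6, 71.7, 66.8 and 73.2 CPM in controls and at 64.0, 55.2, 53.8 and 53.6 CPM in mutants, in the same order. All mutants were below all controls, with K14J26 the closest to them. Efna5 fell by 0.31 on the log2 scale (SE 0.07, adjusted p = 0.0250).

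Efna2 was at 12.6, 13.9, 13.6 and 14.2 CPM in controls and at 10.9, 11.3, 8.32 and 9.39 CPM in mutants. Its groups did not overlap, and the 4 controls lay closer together than the 4 mutants. The log2 fold change was -0.44 (SE 0.11, adjusted p = 0.0323). Efna4 was also lower in each mutant than in each control, at 24.2 ± 1.15 against 28.4 ± 1.66 CPM (mean ± SD, n = 4 per group), and its adjusted p was 0.0540 by edgeR. Efna3 was at 8.17 ± 0.987 and 7.97 ± 0.988 CPM in mutants and controls. Efna1, Efna3 and Efna4 are neighbours on chromosome 3, between 89271733 and 89338028, and edgeR called none of the 3 with TMM scaling. Efna4 was called lower with upper-quartile scaling (adjusted p = 0.0388) and by DESeq2 (adjusted p = 0.0278), and Efna1 with the enamel genes as a covariate (log2 fold change -0.44, adjusted p = 0.0436). Antisense genes overlap exons of Efna3 and Efna4 and had mean levels of 0.790 and 2.18 CPM.

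Of the 3 ephrin-B genes, edgeR called 1. Efnb3, known from the guidance of corticospinal axons, was at 45.6, 40.8, 42.6 and 49.9 CPM in controls and at 36.0, 31.4, 29.7 and 34.3 CPM in mutants. All mutants were below all controls, and the log2 fold change was -0.45 (SE 0.09, adjusted p = 0.0167). Efnb2, the ephrin of arterial endothelium and of many epithelia and mesenchymes, was at 64.6, 63.1, 61.0 and 64.9 CPM in controls and at 80.2, 77.1, 67.8 and 69.4 CPM in mutants. It was the only member with every mutant above every control, and its log2 fold change was 0.22 (SE 0.07, adjusted p = 0.0618 by edgeR and 0.0455 by DESeq2). On library size alone the log2 fold change of Efnb2 was 0.11, with an adjusted p of 0.354. Efnb1, the highest of the family per kilobase, was at 81.2, 85.6, 85.9 and 90.7 CPM in controls and at 86.0, 76.8, 85.4 and 84.6 CPM in mutants. The groups overlapped almost fully, with a log2 fold change of -0.05 (SE 0.06, adjusted p = 0.626).

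Among the EphA receptors, Epha2, a receptor of epithelial cells, was at 71.2, 85.5, 89.6 and 90.7 CPM in controls and at 77.0, 62.4, 62.1 and 62.9 CPM in mutants. Mutants K14J28, K14J29 and K14J30 were nearly equal and below all controls, and K14J26 lay above control J3, so the groups overlapped. Epha2 fell by 0.35 on the log2 scale (SE 0.10, adjusted p = 0.0442). The next in level, Epha1, Epha4, Epha3 and Epha7, were not called, with log2 fold changes of -0.18, -0.28, 0.03 and -0.40 and adjusted p between 0.0841 and 0.937. Without mutant K14J28, Epha1 (-0.25, adjusted p = 0.0360), Epha4 (-0.39, 0.00747) and Epha7 (-0.51, 0.0357) were called lower. With the enamel genes as a covariate the log2 fold changes of these 3 were -0.00348, -0.05 and 0.10, and none was called. Exons of Epha1 share 236 bases with those of Zyx on the other strand, which was at 59.0 CPM, and the strand setting of the counting is not given in the sources used here.

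Ephb4 had the highest level of the EphB receptors. It is the receptor of venous endothelium and binds Efnb2. It was at 117, 101, 111 and 128 CPM in controls and at 84.8, 92.3, 84.5 and 82.6 CPM in mutants. All mutants were below all controls, with a spread among mutants (SD 4.30) under that among controls (SD 11.2). The log2 fold change was -0.41 (SE 0.08, adjusted p = 0.0160). Ephb2, a receptor of axons and of epithelial boundaries, was at 26.5, 26.02, 20.1 and 33.8 CPM in controls and at 10.4, 22.7, 18.6 and 17.0 CPM in mutants. K14J26 was the lowest, and mutant K14J28 lay above control J6. Ephb2 passed the criteria of the study with a log2 fold change of -0.63 (SE 0.23) and not the adjusted threshold (adjusted p = 0.0874 by edgeR). It passed the adjusted threshold by DESeq2 (-0.63, adjusted p = 0.0344), without mutant K14J28 (-0.79, 0.0338) and with Xist as a covariate (-1.03, 0.0314). It no longer passed the criteria of the study without control J7 (-0.49) or without mutant K14J26 (-0.45). Nor did it pass without both J6 and J7 (-0.61) or with the skeletal muscle (-0.57) or endothelial (-0.66) covariate, where its unadjusted p by edgeR was above 0.05. With the enamel genes as a covariate its log2 fold change was 0.088, of the opposite sign. Ephb1 was lower in each mutant, at 7.03 ± 1.82 against 9.87 ± 0.471 CPM (SD, n = 4), with a log2 fold change of -0.48 and an adjusted p of 0.0890 by edgeR and 0.0457 by DESeq2. With the enamel genes as a covariate its log2 fold change was -0.02 (adjusted p = 0.975). Ephb3 was at 96.5 CPM in mutant K14J26 and between 39.4 and 51.7 CPM in the other 7 embryos. Its log2 fold change of 0.34 was -0.00579 without K14J26.

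**Figure D3:**
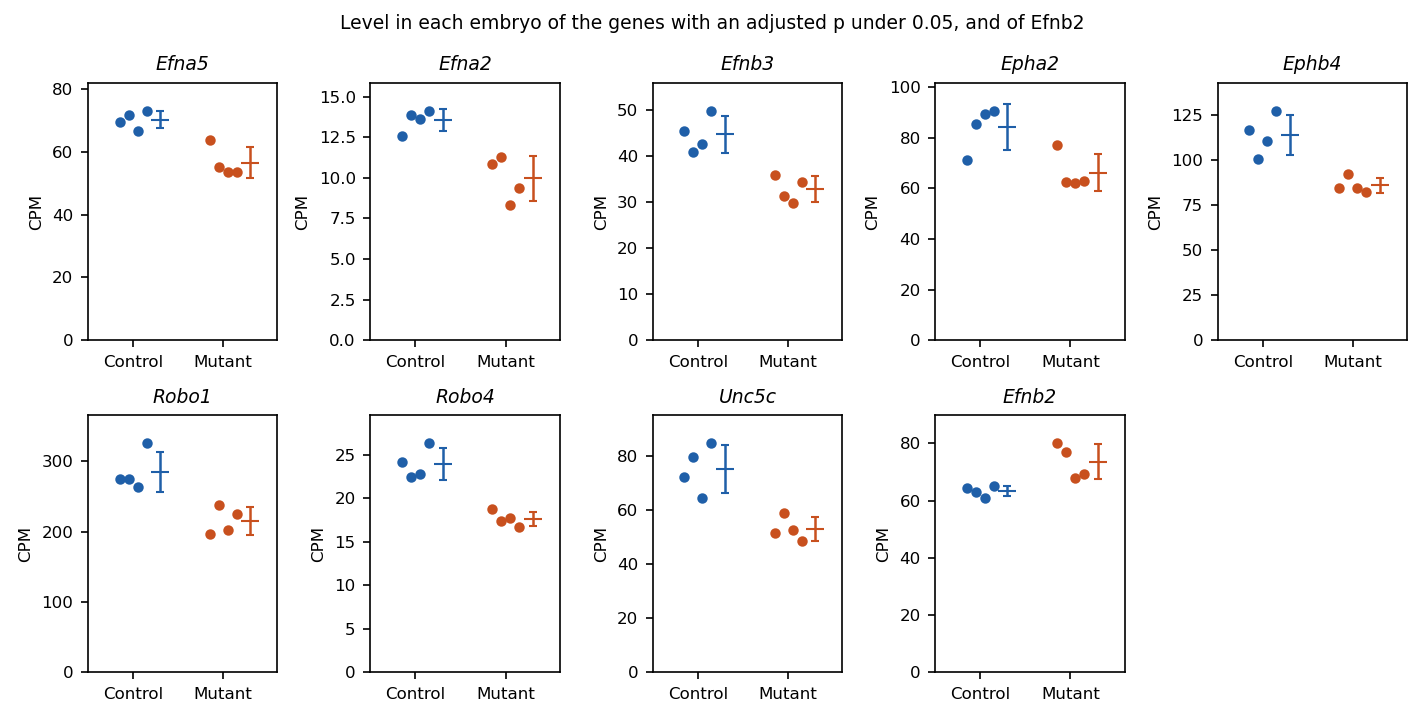
Level in CPM (y axis, from 0) of the 8 genes with an adjusted p under 0.05 and of Efnb2 in each embryo, with the mean and SD of each group beside the points. The mutants lie below all controls in 7 genes, overlap them in Epha2 and lie above them in Efnb2.

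Slit2 was the most abundant Slit. It was at 195, 209, 188 and 225 CPM in controls and at 85.1, 229.7, 133 and 161 CPM in mutants. Among the mutants K14J26 was the lowest and K14J28 was above every control, so that the SD was 60.4 CPM in mutants and 16.3 in controls. The log2 fold change was -0.43 (SE 0.24, adjusted p = 0.243 by edgeR), and -0.23 without K14J26. Without K14J28 it was -0.70, with an adjusted p of 0.0281. With the enamel genes as a covariate it was 0.32, of the opposite sign (adjusted p = 0.261 by edgeR). Slit3 had a log2 fold change of -0.04 and Slit1, at 1.55 to 3.99 CPM, one of 0.40, and neither was called.

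Robo1, a receptor for Slits on axons and in mesenchyme, was at 275, 275, 263 and 327 CPM in controls and at 197, 239, 202 and 225 CPM in mutants. Every mutant lay below every control, and J7 was above the other controls. Robo1 fell by 0.40 on the log2 scale (SE 0.09, adjusted p = 0.0227). With the enamel genes as a covariate its log2 fold change was -0.17, and it was not called (adjusted p = 0.353 by edgeR). Robo4, the Robo of endothelial cells, was at 24.1, 22.4, 22.7 and 26.3 CPM in controls and at 18.7, 17.4, 17.7 and 16.6 CPM in mutants. Its groups were separated by more than the SD of either, and the log2 fold change was -0.44 (SE 0.08, adjusted p = 0.0135), the smallest adjusted p of the 34 genes. Robo2 lies beside Robo1 on chromosome 16 and was at 37.1 ± 2.64 CPM in mutants and 38.2 ± 4.61 in controls (SD, n = 4). Robo3, next to Robo4 on chromosome 9, was at 0.337 to 1.66 CPM. Neither of these neighbours was called. The ratio of Robo1 to Slit2 counts overlapped between groups, at 1.39 ± 0.0569 in controls and 1.57 ± 0.534 in mutants.

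Among the netrins, Ntn4, which binds laminins of basement membranes, had the highest level per kilobase of exons. In CPM it was at 22.1, 23.9, 21.7 and 21.0 CPM in controls and at 35.5, 20.3, 32.02 and 24.8 CPM in mutants. K14J28 lay below all controls and the other mutants above them, and the log2 fold change was 0.34 (SE 0.16, adjusted p = 0.160 by edgeR). Without K14J28 it was 0.47, with an adjusted p of 0.0237. With the enamel genes as a covariate it was -0.19, of the opposite sign (adjusted p = 0.471 by edgeR). Ntn1, the netrin of commissural axon guidance, was at 15.4 ± 2.78 CPM in mutants and 19.9 ± 5.49 in controls, with overlap and no call.

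Unc5c, which mediates repulsion by netrin, had the largest fall among the genes called. It was at 72.2, 79.7, 64.5 and 85.0 CPM in controls and at 51.7, 59.1, 52.8 and 48.7 CPM in mutants. All mutants were below all controls, and the log2 fold change was -0.51 (SE 0.10, adjusted p = 0.0156). Unc5b, a netrin receptor known also from vessels, was at 275, 318, 372 and 319.6 CPM in controls and at 493, 282, 389.8 and 380.1 CPM in mutants. K14J26 was the highest and K14J28 lay among the controls, and the log2 fold change was 0.26 (SE 0.16, adjusted p = 0.257). It was 0.13 without K14J26, and without K14J28 it was 0.38 with an adjusted p of 0.0473. With the enamel genes as a covariate it was -0.27, of the opposite sign (adjusted p = 0.214 by edgeR). The ratio of Unc5c to Unc5b counts was 0.238 ± 0.0436 in controls and 0.145 ± 0.0456 in mutants, with overlap.

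Neo1, which binds netrins and the repulsive guidance molecules Rgma and Rgmb, had the smallest SE of the 34 genes tested. It was at 389, 396, 385 and 419.7 CPM in controls and at 391, 382, 384 and 386 CPM in mutants. The groups overlapped, with SDs of 15.7 and 4.03 CPM and a log2 fold change of -0.04 (SE 0.05, adjusted p = 0.601). A ratio to Neo1 within a library does not depend on its scaling. Relative to Neo1, the counts of Robo1, Robo4, Ephb4, Unc5c, Efna2, Efna5 and Efnb3 were lower in every mutant than in every control, by factors of 0.727 to 0.828. Epha2 over Neo1 was at 0.171 ± 0.0170 in mutants and 0.212 ± 0.0208 in controls (SD, n = 4), with overlap. Neo1 was taken for this after its values were seen, and the other genes because edgeR had called them. The ratios therefore restate unequal change and are no separate test, and they do not show that Neo1 was constant.

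Efnb2 and its receptor Ephb4, known as an arterial and venous pair, were then set against each other in each library. The counts are from whole molars and do not show which cells held either transcript. The ratio of Efnb2 to Ephb4 counts was 0.551, 0.624, 0.551 and 0.508 in controls and 0.945, 0.835, 0.802 and 0.841 in mutants. It was higher in every mutant than in every control, by a factor of 1.53 between the means, and it was chosen after the values were seen, so no test is given. Of 8 endothelial markers, Tie1 was called lower (log2 fold change -0.35, adjusted p = 0.0291) and 0 were higher by edgeR. At an unadjusted p of at most 0.05, 3 were lower and 0 higher, beside 15.7% and 19.1% of all genes, and 7 of the 8 estimates were negative. Their summed level was 366, 371, 377 and 402 CPM in controls and 355, 339, 358 and 299 CPM in mutants, a ratio of 0.891 between the means, where Robo4 stood at 0.736 and Ephb4 at 0.754. Cdh5, the most abundant of them, was at 63.8 ± 8.22 CPM in mutants and 78.8 ± 5.37 in controls (adjusted p = 0.0642), and no marker was at 0 in any embryo. With the mean of these markers as a covariate, the log2 fold changes of Robo4 and Ephb4 were -0.36 and -0.35 (adjusted p = 0.0472 and 0.0566). What part the number of endothelial cells has in these values was not tested.

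**Figure D4:**
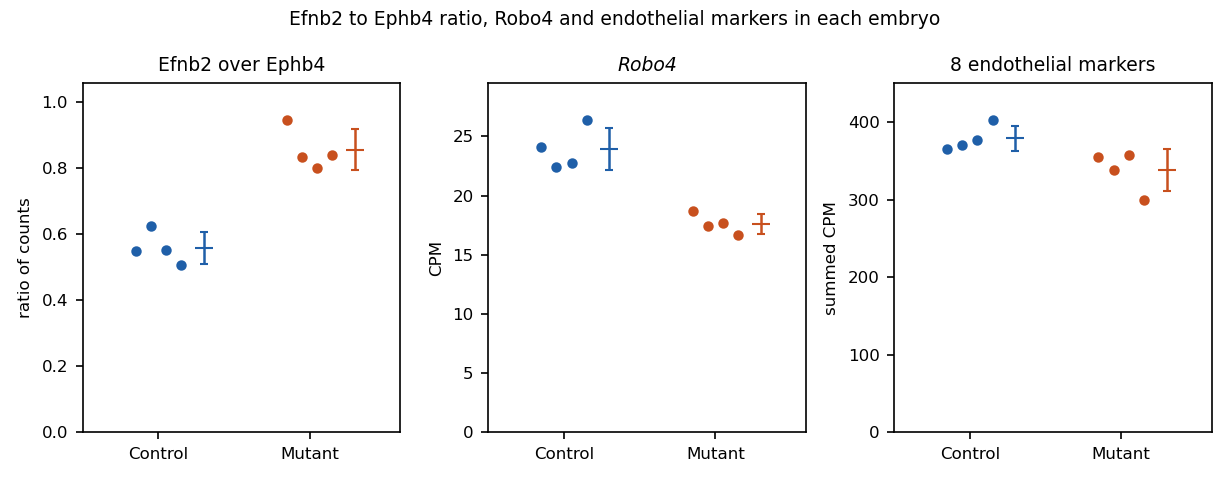
Ratio of Efnb2 to Ephb4 counts, level of Robo4 in CPM, and summed CPM of 8 endothelial markers in each embryo, with the mean and SD of each group beside the points and y axes from 0. None of the 3 panels overlaps between groups: the ratio is higher and Robo4 and the marker sum are lower in mutants, and the sums run from 299 to 358 in mutants and from 366 to 402 in controls.

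Genes that act with these receptors were read from 3 lists of partners. Of the 66 genes tested 6 were lower and 6 higher, 9.09% in each direction, near the 6.61% and 9.52% of all genes, and the median log2 fold change was -0.04. Among 27 partners of Eph receptors and ephrins, 1 was lower and 2 higher. Fyn, a Src family kinase, fell (-0.50, SE 0.09, adjusted p = 0.0123), and the adaptor Nck1 (0.42, adjusted p = 0.0152) and the kinase Yes1 (0.27, adjusted p = 0.0450) rose. Among 20 partners of Slits and Robos, Srgap3, a GTPase-activating protein that binds Robo1, rose (1.05, SE 0.19, adjusted p = 0.0140), as did Myo9b (0.62, adjusted p = 0.0167), and Nell2, a ligand of Robo3, fell (-0.29, adjusted p = 0.0294). In the 19 netrin partners tested, 4 were lower and 2 higher.

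Flrt2, a membrane protein that binds Unc5 receptors, was at 51.7, 55.2, 43.9 and 49.3 CPM in controls and at 117, 98.1, 124 and 90.3 CPM in mutants. Every mutant lay above every control, and its log2 fold change of 1.103 (SE 0.11, adjusted p = 0.00485) was the largest of the 66. Rgmb, a ligand of Neo1, fell by 0.45 on the log2 scale (SE 0.12, adjusted p = 0.0338). Rgma, its relative, had -0.18, Flrt3 -0.21 and Mcam -0.09, and these 3 were not called. Adora2b (-0.82, adjusted p = 0.0356) and Siah1a (-0.35, adjusted p = 0.0448) fell. The sixth calls on either side, chosen after their values were seen, were the guanine exchange factor Trio (0.26, adjusted p = 0.0487) and the GTPase Rac1 (-0.18, adjusted p = 0.0465). Of the 5 genes of the netrin-G group, which share a netrin-like domain or bind it, Ntng1 was called lower (-0.77, SE 0.13, adjusted p = 0.0125).

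Marker lists of the cell types a molar germ can hold were read in the same fit. In dental epithelium 1 of 6 markers was higher, Krt14 (0.96), and 0 were lower by edgeR, with 4 higher and 1 lower at an unadjusted p of at most 0.05. Their summed level was 4657 to 5371 CPM in controls and 5486 to 8083 CPM in mutants, without overlap, and Krt5 was the most abundant at 2834 ± 169 CPM in controls and 3518 ± 477 in mutants. In ameloblasts 4 of 5 rose, Amelx by 4.17 on the log2 scale, and the summed level ran from 557 to 3254 CPM in controls and from 3503 to 114369 CPM in mutants. Of 3 odontoblast markers 2 rose, Dspp among them (2.31). In dental mesenchyme 4 of 6 fell, Pax9 by the most (-0.82), and Pdgfra rose (0.42), while the sum, led by Vim, was 1.05 times the control mean. Of 5 pericyte markers 1 fell (Pdgfrb) and 1 rose (Kcnj8), and of 8 markers of Schwann cells and nerve 1 fell (Ngfr) and 1 rose (Tubb3, the most abundant). Of 5 bone markers 2 rose, Sp7 and Bglap. The 8 skeletal muscle markers had 1 call, Ckm, whose high values were in controls J6 and J7. At an unadjusted p of at most 0.05 and by the criteria of the study 7 of the 8 were lower and 0 higher, and all 8 estimates were negative, with a median log2 fold change of -3.72. No marker of macrophages and other immune cells, erythroid cells or chondrocytes was called by edgeR, and at an unadjusted p of at most 0.05 these 3 lists held 1, 0 and 1 genes, Cd14 (0.56) and Sox9 (-0.20). The macrophage sum was 151 CPM in K14J28 and 48.5 to 76.4 CPM in the other 7 embryos, and the erythroid sum, led by Hbb-bs, was 1019.6 ± 187 CPM in controls and 1096 ± 457 in mutants. What part the make-up of the tissue has in the levels of the ephrin, Slit and netrin genes was not tested.

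The 8 calls depended on single libraries. Without mutant K14J29, 0 members were called by edgeR (11 lower and 1 higher at an unadjusted p of at most 0.05), and 170 of all genes were called lower in place of 1133. Without controls J3, J5, J6 and J7 in turn, 3, 4, 6 and 3 members were lower, where 1.68%, 2.28%, 3.24% and 1.39% of all genes were called lower. Without mutants K14J26, K14J28 and K14J30, 8, 12 and 5 members were lower, beside 7.94%, 10.9% and 4.85% of all genes. Only the fit without K14J28 gave calls of higher members, Ntn4 and Unc5b. Robo4 and Unc5c were called in 7 of the 8 fits and lost without K14J29 (adjusted p = 0.0514 and 0.0560). Ephb4 was called in 6, and lost without J3 (0.0515) or K14J29 (0.0572). Efnb3 was called in 5, and lost without J3, J7 or K14J29 (adjusted p up to 0.0579). Robo1 was called in 4, and lost without J3, J5, J7 or K14J29 (up to 0.0741). Efna5 was called in 3, and lost without J3, J5, J7, K14J29 or K14J30 (up to 0.0790). Efna2 was called in 2, and only without K14J26 or K14J28 (otherwise up to 0.0884), and Epha2 in 2, without J3 or K14J26 (otherwise up to 0.120). All 8 kept a negative log2 fold change in each of these fits, from -0.29 to -0.58. Without both controls with muscle transcripts, J6 and J7, edgeR called 0 members (8 lower and 1 higher at an unadjusted p of at most 0.05), where 0.0237% of all genes were called lower, and the 8 log2 fold changes lay between -0.25 and -0.52.

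**Figure D5:**
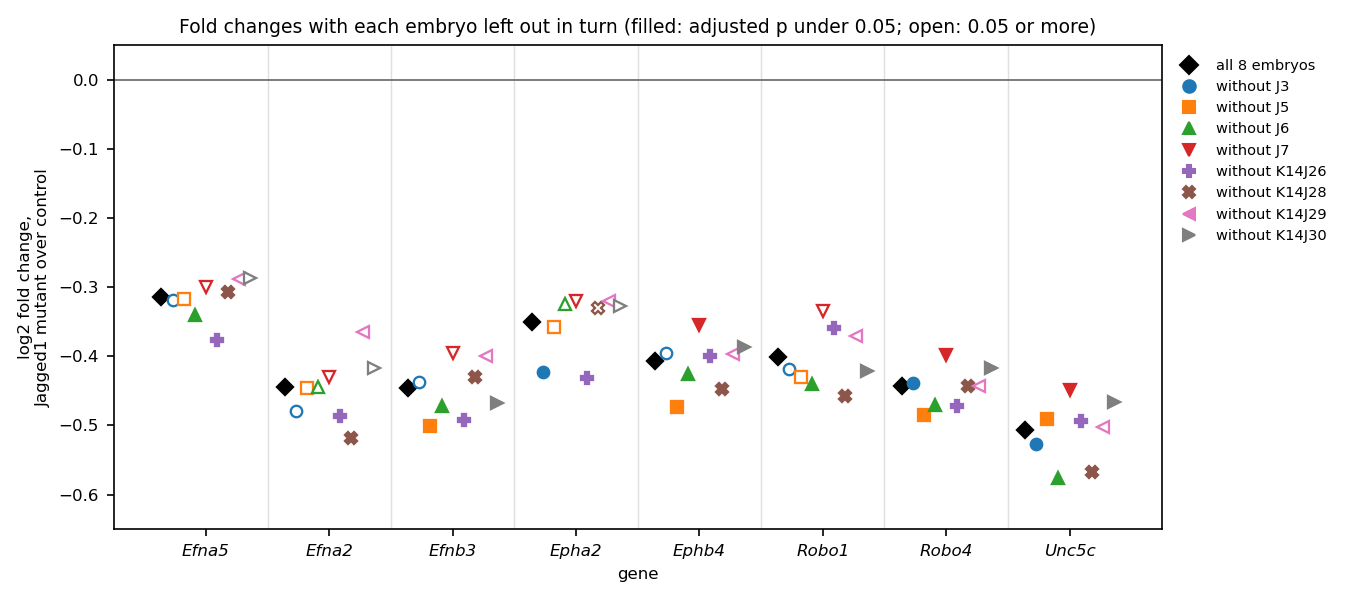
Log2 fold change (mutant over control, y axis) of the 8 genes with an adjusted p under 0.05, with all 8 embryos and with each embryo left out in turn, filled where the adjusted p is under 0.05. All points lie below 0, and all 8 genes are open without K14J29.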

How the data were processed

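The authors trimmed single-end reads with Trimmomatic, aligned them to GRCm38 with STAR and deposited unnormalized counts per Ensembl gene, 1 table per embryo. The paper names GenomicRanges for the counting and the submitters' notes featureCounts with GRCm38.p3. The use of strand and of reads with several matches is not given in the sources used here. Symbols, exon lengths and positions were taken from GENCODE M21, which holds 42548 of the 43629 identifiers; those without a symbol took at most 0.410% of the counts of a library. Ntn3 was not analysed here, because its identifier in GENCODE M21 did not match any of the identifiers counted. Genes that reached 10 counts in 2 or more embryos of the control or the mutant group were scaled by TMM and tested with glmQLFit and glmQLFTest of edgeR 4.0.16 (R 4.3.3), with no covariate. Adjustment was by Benjamini-Hochberg over all 17129 tested. The code was tested on simulated data. Each SE is the absolute log2 fold change over the square root of F. CPM use TMM-scaled library sizes. In the 12 pairs of libraries within a group, chi-square per degree of freedom was at least 6.88, so no library was counted as a duplicate. Given in every embryo are members past either threshold, the highest of each family per kilobase, and Jag1; Efnb2, Neo1, Ephb3 in part and Flrt2 were added, the first 3 after their values were seen. Partners named are up to 5 calls in each direction and Flrt2, Flrt3, Rgma, Rgmb and Mcam, which bind members. Members and lists were chosen with earlier results of these data known. Alternatives were other scalings, no filter, DESeq2 1.42.0, embryos left out, and enamel, muscle, endothelial and Xist covariates.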

Additional observations from a re-analysis of the deposited data

Results flagged for a closer look

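In 5 of the 68 groups of 4 embryos examined, 1 per tested member and group, 1 embryo lay farther from the other 3 than Dixon's 95% critical value allows. Chance gives this in about 1 in 20 groups. All 5 are in mutants. Mutant K14J26 was high in Efna5, at 64.0 CPM against 53.6 to 55.2 in the other mutants, and in Epha2, at 77.0 against 62.1 to 62.9. Mutant K14J28 was low in Efnb1, at 76.8 CPM against 84.6 to 86.0, and high in Epha4, at 96.6 against 73.0 to 75.0. Mutant K14J29 was high in Ntn1, at 19.5 CPM against 13.7 to 14.5. The cause was not tested for any of them.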

How the results depend on the processing

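The 8 members called lower numbered 8 or 9 on library size alone, with upper-quartile or relative log expression factors and with no filter on low counts. They numbered 11 with DESeq2, which also called 1 higher. In the order named, these fits called 6.19%, 8.45%, 6.76%, 3.21% and 10% of all genes lower. With 1 embryo left out in turn, 0 to 12 were lower and 0 to 2 higher, and 1 to 7 lower and 0 to 1 higher by the criteria of the study. On library size alone 7 passed those criteria as lower. Without controls J6 and J7, 0 were called lower, and 1 lower and 1 higher passed the criteria of the study. With the enamel covariate 1 was lower, Efna1 (-0.44), which is not among the 8, beside 0.654% of all genes. The log2 fold changes of the 8 then ran from -0.17 (Robo1) to -0.57 (Epha2), with Robo4 at -0.46. With the skeletal muscle covariate 0 were lower, beside 0.269% of all genes, with the 8 between -0.29 and -0.52 (1 lower and 1 higher by the criteria of the study). With the endothelial covariate 3 were lower, Efnb3, Robo4 and, from outside the 8, Ephb1, and 1 was higher, Slit1 at 0.96, beside 845 lower (4.93%) and 1559 higher of all genes (3 higher by the criteria of the study). With Xist 5 were lower, 4 of the 8 and Ephb2, beside 4.68% of all genes (6 lower and 1 higher by those criteria). With the enamel covariate the log2 fold changes of Ephb2 (0.088), Ntn4 (-0.19), Unc5b (-0.27) and Slit2 (0.32) had the opposite sign, with adjusted p of 0.834, 0.471, 0.214 and 0.261, as had those of Ephb3 (-0.52), Epha7 (0.10), Epha5 (0.62) and Robo3 (0.24), none of them called. The cause was not tested. The enamel score was higher in every mutant than in every control, so its effect and that of the genotype cannot be told apart. The longest transcript was added as an alternative length after the data were seen.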

Other observations

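Mutant K14J26 was the highest of the 4 mutants in 15 of the 34 tested members and the lowest in 10, and control J7 was the highest of the 4 controls in 23. The members together took 0.238% to 0.267% of the counts in controls and 0.190% to 0.230% in mutants. Summed over a family, the ephrin-A genes were at 180.2, 187, 185 and 181 CPM in controls J3, J5, J6 and J7 and at 172, 148, 154 and 154 CPM in mutants K14J26, K14J28, K14J29 and K14J30. The Robo genes summed to 336, 332, 331 and 393 CPM in controls and to 254, 297, 259 and 276 CPM in mutants. In both sums every mutant was below every control, as were 11.6% of all genes tested singly. Robo1 held most of the Robo sum, at a mean of 285 of 348 CPM in controls and 216 of 271 CPM in mutants. Of the ephrin-A genes, Efna2, Efna4 and Efna5 were lower in every mutant, and Efna1 and Efna3 overlapped. The sums of the ephrin-B, EphA, EphB, Slit, netrin and netrin receptor genes overlapped between the groups.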
